A study of Mus musculus with 6 samples.

Results

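Integrins, laminins and collagens were followed in MB21, a medulloblastoma line of the mouse that carries mutant ptch, after exposure to the benzarone derivative DS-1-38 (DS38). Members were the 83 protein-coding genes, of 55416 gene identifiers in the count table, whose symbols mark them as integrin subunits (28), laminin chains (11) or collagen chains (44). Cells grew without attachment in DMEM/F12 medium with B27. They received DS38 at 10 uM (3 libraries) or its vehicle, DMSO (3 libraries), for 1 day. The series' design text gives a longer treatment, but its title, the sample titles and the treatment protocol give 1 day. Both groups share the line, the ptch mutation and the medium, and all 6 libraries come from that single line. The labels do not say whether replicates were separate cultures, and the spread behind each p-value may therefore be technical.

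Integrins are cell-surface heterodimers of an alpha and a beta subunit that bind extracellular matrix outside the cell and, through talin and kindlin, the actin cytoskeleton inside it. Laminins are trimers of an alpha, a beta and a gamma chain that polymerize into the basement membrane sheet. Collagens are trimers of chains wound into a triple helix, and build fibrils, the collagen IV network or smaller associated structures. In the developing cerebellum, granule neuron precursors, the lineage from which hedgehog-driven medulloblastoma arises, divide next to the laminin-rich basement membrane of the pial surface and bind it through beta 1 integrins.

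Counts per library were 38840296 to 50014681 in DMSO and 60434089 to 84044428 in DS38, with all 3 DS38 libraries deeper than any of DMSO. Chi-square over its degrees of freedom between pairs of libraries was 8.31 to 9.37 within DMSO and 2.94 to 3.63 within DS38. Between groups it was 10.5 to 12.98 for DMSO library 3, the shallowest, and 24.9 to 29.7 for DMSO libraries 1 and 2. Without DMSO replicate 3, 15 of the 17 members called below were still called; Col11a1 and Col20a1 were lost, and Itgb1 and Col5a3 passed. The 83 members together took 0.165% to 0.169% of all counts in a library. Levels between genes are compared as RPKM (TMM-normalized reads per kilobase of deposited gene length, scaled to library size), and one gene across libraries as CPM (counts scaled to library size, TMM-normalized). All 14 markers fixed for granule precursors and hedgehog medulloblastoma were measured in both groups. In DMSO, Zic1 had the highest CPM of them (666) and Atoh1 the highest level per length (154 RPKM). Endothelial markers (10 genes, summed level 1.09 to 1.64 CPM in DMSO and 1.13 to 1.62 in DS38), leukocyte markers (10 genes, 1.78 to 1.96 and 1.73 to 2.17) and epithelial markers (6 genes, at most 0.146 and 0.0587) were near 0. Kdr, Cldn5, Tie1, Erg, C1qa, C1qb, Tyrobp, Krt18 and Krt5 had no count in any library.

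After 1 day of DS38, 10 members rose and 7 fell. In bulk RNA, fewer cells of a kind and less RNA per cell cannot be told apart. Those that rose included 2 laminin-binding integrin chains, Itga7 and Itga6, and the vitronectin receptor chain Itgb5. Those that fell included Col9a3, with the lowest adjusted p among them though not the largest fall, and the laminin chains Lamc1 and Lama5 by small amounts. The Lama5 call was lost in 10 of 16 alternative analyses. Of the 83 members, 54 passed the filter on low counts and were tested with edgeR's quasi-likelihood test. The 17 calls at an adjusted p under 0.05 are 31.5% of the tested members, against 24.5% of all 17679 genes tested and 29.4% of the 13037 protein-coding ones. By direction, 10 of 54 members were called higher and 7 lower, where 12.9% (2272) and 11.7% (2068) of all tested genes were; with library size alone as scaling, that split over all genes was 3289 higher and 1543 lower. The share called is therefore near the background, and the results below concern which members moved. The median log2 fold change was 0.08 over the tested members and 0.0036 over all tested genes, and 31 of 54 members had a value above 0. Among integrins 4 rose and 1 fell of 21, among laminins 0 rose and 3 fell of 7, and among collagens 6 rose and 3 fell of 26. Groups did not overlap in 24 of the 54, against 38.6% of all genes tested.

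**Figure D1:**
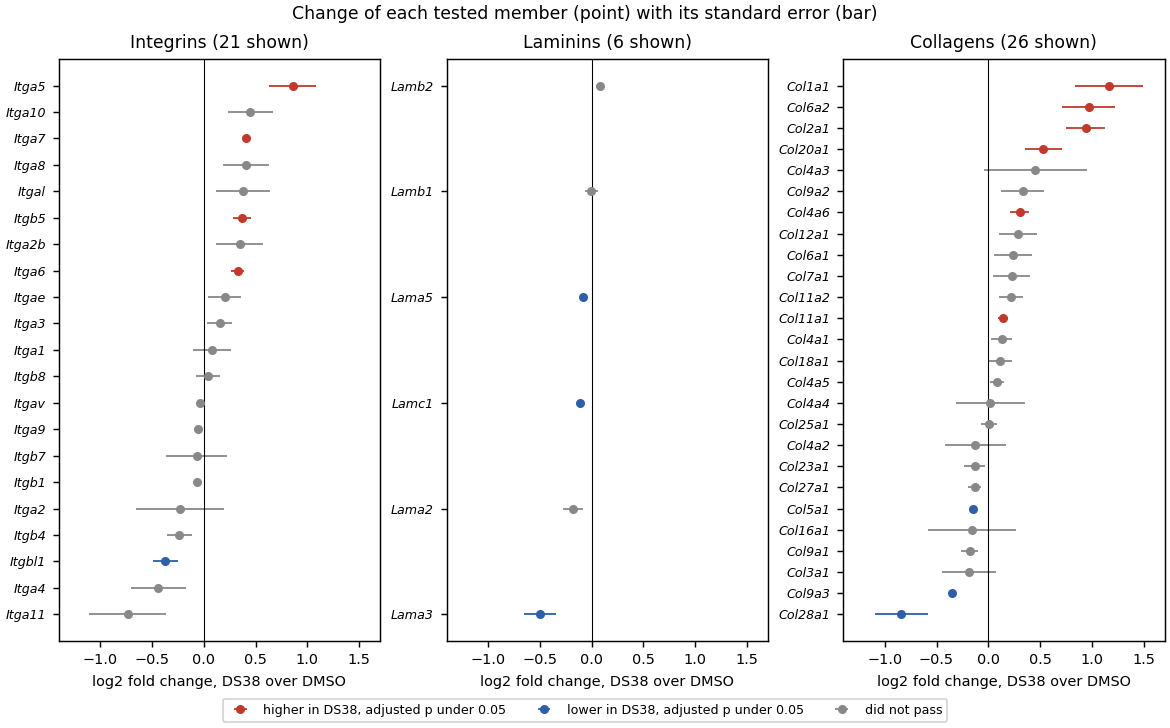
Log2 fold change of DS38 over DMSO (x axis) for the tested members, except 1 not reported here, in 3 panels by family, each point with its standard error. Red points (10) passed the test as higher, blue points (7) as lower, and the widest bars belong to genes of low count such as Col4a3 and Itga2.

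Changes were small where they were precise. Among the 15 tested members at 10 CPM or more in DMSO, log2 fold changes ran from -0.35 to 0.41 with a median SE of 0.041, and 3 rose and 4 fell. Among the 19 below 1 CPM they ran from -0.84 to 1.16 with a median SE of 0.26, and 4 rose and 1 fell. Col1a1 alone exceeded a 2-fold change among the calls. Of the 17 calls, 7 were called under each of 16 alternative analyses that tested them: Itga7, Itga6, Itgb5, Itga5, Col9a3, Col2a1 and Col6a2. No call changed sign under any of the 16.

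**Figure D2:**
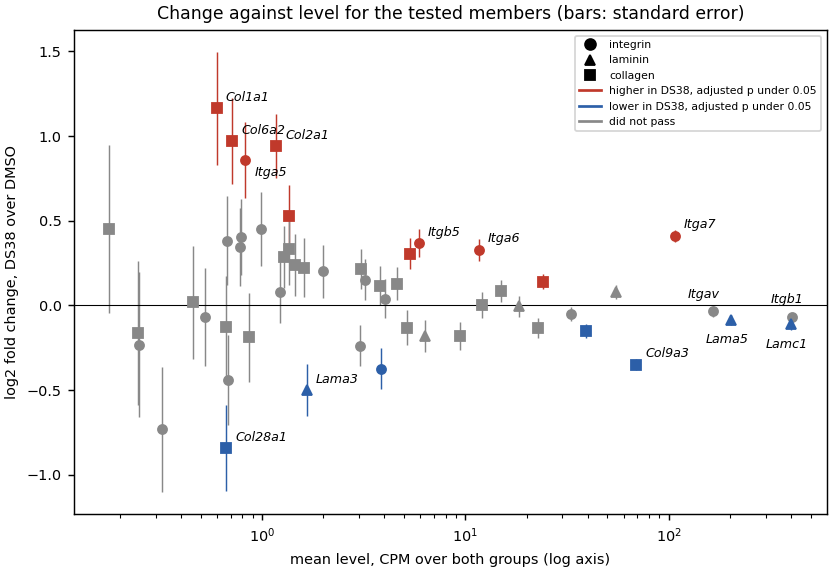
Log2 fold change with its standard error against the mean CPM of both groups on a log axis; circles are integrins, triangles laminins and squares collagens, coloured by the test as above, with 1 member left out. Of the abundant members, Itgb1 lies at -0.07, Lamc1 at -0.11, Lama5 at -0.08 and Itgav at -0.03, while Itga7 stands at 0.41 and Col9a3 at -0.35.

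Promoter sequence was available from RefSeq (GRCm38.p6) for 60 members, 10 of them called. The 250 bases before the start are shown for 4 of these, the integrin chains Itga5 and Itgb5, which rose, and the matrix chains Lama5 and Col5a1, which fell. They are examples of promoters of chains that rose and chains that fell, not of a split between receptors and matrix. The matrix chains Col11a1, Col4a6, Col6a2 and Col20a1, which also have a window, rose. The Lama5 call was lost in 10 of 16 alternatives. Capitals mark GC boxes (GGGCGG or its reverse complement, searched on both strands), the site bound by Sp1-type factors. The windows lie at chr15:103366792-103367041, minus strand (Itga5), chr16:33829415-33829664, plus strand (Itgb5), chr2:180225860-180226109, minus strand (Lama5) and chr2:27886175-27886424, plus strand (Col5a1), and each reads 5′ to 3′ toward its gene.
Itga5: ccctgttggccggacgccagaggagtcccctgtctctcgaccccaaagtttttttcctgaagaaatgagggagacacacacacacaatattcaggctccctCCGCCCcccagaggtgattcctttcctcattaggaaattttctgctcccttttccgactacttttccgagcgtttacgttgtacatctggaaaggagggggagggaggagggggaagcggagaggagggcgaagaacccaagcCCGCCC
Itgb5: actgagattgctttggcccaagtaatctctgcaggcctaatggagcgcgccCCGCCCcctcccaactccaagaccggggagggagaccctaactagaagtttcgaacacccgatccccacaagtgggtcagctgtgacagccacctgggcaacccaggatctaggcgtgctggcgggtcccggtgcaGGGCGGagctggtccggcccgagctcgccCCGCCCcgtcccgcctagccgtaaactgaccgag
Lama5: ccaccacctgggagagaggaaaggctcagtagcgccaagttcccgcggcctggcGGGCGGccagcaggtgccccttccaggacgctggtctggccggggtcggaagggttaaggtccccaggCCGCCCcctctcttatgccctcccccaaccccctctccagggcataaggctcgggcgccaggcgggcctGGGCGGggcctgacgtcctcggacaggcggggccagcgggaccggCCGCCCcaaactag
Col5a1: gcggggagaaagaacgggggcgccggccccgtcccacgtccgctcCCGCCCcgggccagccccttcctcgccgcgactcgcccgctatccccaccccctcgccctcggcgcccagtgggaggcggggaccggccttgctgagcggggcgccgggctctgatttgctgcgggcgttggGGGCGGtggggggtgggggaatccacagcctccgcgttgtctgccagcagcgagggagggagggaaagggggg
They hold 2, 3, 4 and 2 GC boxes and no CCAAT box, with a G and C content of 55.6%, 65.2%, 72.4% and 76.4%. A GC box was present in 5 of the 6 higher and 3 of the 4 lower members that have a window. Among the 31 with a window that did not pass, 14 had a GC box. A CCAAT box was present in 1 of the 6 higher, 1 of the 4 lower and 11 of those 31. Over all windows a GC box was present in 48.5% of 66 from members and 32.7% of 32851 from all genes. A CCAAT box was present in 27.3% of the members' windows and 33.9% of all windows. An E-box (CANNTG) was in 63.6% and 66.2%, and an AP-1 site (TGANTCA) in 3.03% and 6.75%. The GLI site of hedgehog signalling (GACCACCCA) and the cyclic AMP response element (TGACGTCA) were in 0 of the 66, against 0.225% and 1.55% of all windows. With background shares this low, 66 windows are too few to tell a count of 0 from the background. A match is a description of the letters, not a bound site.

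Itgb1, the beta subunit that pairs with the most alpha subunits, was by far the most abundant integrin. Its level was 102 ± 1.096 RPKM in DMSO (SD, n = 3), 40.5 times that of all other beta chains summed. In counts it stood at 420.0, 415 and 411 CPM in DMSO libraries 1 to 3 and 397, 391 and 400.5 in DS38 libraries 1 to 3. Every DS38 library lay below every DMSO library, but by little (log2 fold change -0.07 ± 0.027 SE, edgeR adjusted p = 0.0679), and the difference did not pass. That borderline moved with the method: with DESeq2, adjusted p was 0.0215 and with edgeR after removing a trend on gene length 0.00143, while with library size alone it was 0.346. Next came the alpha chains Itgav (15.5 ± 0.965 RPKM in DMSO), Itga7 (11.4 ± 0.368) and Itga9 (4.39 ± 0.177), the last a partner of beta 1 that binds tenascin-C and VCAM1. The other integrin genes were below 2 RPKM in both groups.

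The 3 alpha chains classed here as laminin-binding, Itga7, Itga6 and Itga3, had values above 0, and 2 of them rose. The share called higher over all tested genes was 12.9%. Itga7 (ENSMUSG00000025348), best known as the laminin receptor chain of skeletal muscle, was at 88.7, 93.05 and 94.4 CPM in DMSO libraries 1 to 3 and 122, 129 and 117 in DS38 libraries 1 to 3. The lowest DS38 library exceeded the highest DMSO library by a wide margin relative to the spread within groups. Itga7 rose 1.33-fold (log2 fold change 0.41 ± 0.035 SE, edgeR adjusted p = 3.734e-08), the lowest adjusted p among the members. Over the 16 alternatives its log2 fold change ran from 0.38 to 0.45. Itga6 (ENSMUSG00000027111), a laminin receptor chain of stem and precursor cells, was at 10.6, 10.4 and 9.93 CPM in the DMSO libraries and 13.2, 13.5 and 12.4 in the DS38 libraries. The groups did not overlap, and Itga6 rose 1.26-fold (log2 fold change 0.33 ± 0.064 SE, edgeR adjusted p = 6.604e-04). Itga3 had 3.02 ± 0.367 CPM with DMSO and 3.39 ± 0.304 with DS38 without passing (log2 fold change 0.15 ± 0.12; edgeR adjusted p = 0.399). Summed over the 3 chains, the level was 105 ± 2.37 CPM with DMSO and 139 ± 6.37 with DS38 (SD, n = 3), and Itga7 stayed near 10.1 times Itga6 per length (10.7 in DS38, overlapping).

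Itgb4, which pairs solely with Itga6 and links laminin to keratin filaments, had 3.28 ± 0.338 CPM with DMSO and 2.78 ± 0.166 with DS38 without passing (log2 fold change -0.24 ± 0.12; edgeR adjusted p = 0.161). The ratio of Itga6 to Itgb4 per length was 2.42 ± 0.166 in DMSO and 3.597 ± 0.358 in DS38, with no overlap between groups. The ratio of Itga7 to the RGD-binding chain Itgav went likewise from 0.735 ± 0.0673 to 0.998 ± 0.0726. Both chains were at nearly equal RPKM after DS38. Itgb1 over the summed alpha chains that can pair with it was 3.03 ± 0.0367 in DMSO and 2.60 ± 0.0643 in DS38, also without overlap. These ratios combine genes tested above and were given no test of their own.

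Among the chains of receptors for RGD-containing ligands such as fibronectin and vitronectin, Itgb5 and Itga5 rose. Itgb5 (ENSMUSG00000022817), which pairs with Itgav to bind vitronectin, was at 4.95, 5.24 and 5.27 CPM in the DMSO libraries and 6.64, 6.51 and 6.79 in the DS38 libraries. The 2 groups were well apart, and Itgb5 rose 1.29-fold (log2 fold change 0.37 ± 0.084 SE, edgeR adjusted p = 0.00255). Itga5 (ENSMUSG00000000555), the alpha chain of the main fibronectin receptor, was at 0.573, 0.666 and 0.517 CPM in the DMSO libraries and 1.103, 1.12 and 0.986 in the DS38 libraries. It rose 1.81-fold (log2 fold change 0.86 ± 0.22 SE, edgeR adjusted p = 0.00675), the largest change among the integrins that passed, from 20 to 32 counts per library in DMSO. Itgav itself, shared by most beta chains of this group, had 167 ± 10.4 CPM with DMSO and 163 ± 4.67 with DS38 (log2 fold change -0.03 ± 0.037; edgeR adjusted p = 0.566). Itgb8, an Itgav partner that activates latent TGF-beta, had 3.94 ± 0.355 CPM with DMSO and 4.08 ± 0.5104 with DS38 (edgeR adjusted p = 0.846). Neither passed, and the sign of both depended on the analysis. The other 2 alpha chains of this group were below 1 CPM and did not pass, with log2 fold changes of 0.35 and 0.40.

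All 4 collagen-binding alpha chains were tested and none passed. Their log2 fold changes ran from -0.73 to 0.45, and their summed level was 2.68 ± 0.342 CPM with DMSO and 2.88 ± 0.297 with DS38. The chain with the value of 0.45, Itga10, shares 33.5% of its exon bases with Gm42957 in the GENCODE M21 annotation (GRCm38), so its count is uncertain. The alpha 4 and alpha 9 chains summed to 34.5 ± 1.51 CPM with DMSO and 33.2 ± 0.395 with DS38, nearly all of it Itga9 (log2 fold change -0.05 ± 0.042; edgeR adjusted p = 0.411). Of 8 chains of leukocyte integrins 3 were tested and none passed. The other 5 had 0 to 41 counts over the 6 libraries. Itgam had 0, which allows up to 0.00829 CPM, but 68.7% of its exon bases are shared with Gm49368, also at 0. The integrins not tested besides these were Itgb3 (46 counts) and Itgb6 (7). Itgbl1 meets the symbol rule but encodes a secreted protein with integrin-like repeats, and it was the member of this family that fell. It was at 4.57, 3.95 and 4.39 CPM in the DMSO libraries and 3.31, 3.898 and 2.84 in the DS38 libraries, with DS38 library 2 close to the lowest DMSO library (log2 fold change -0.37 ± 0.12 SE, edgeR adjusted p = 0.0272). Its call was lost once DMSO replicate 1 or DS38 replicate 1 or 3 was left out (edgeR adjusted p = 0.105, 0.0739 and 0.159).

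**Figure D3:**
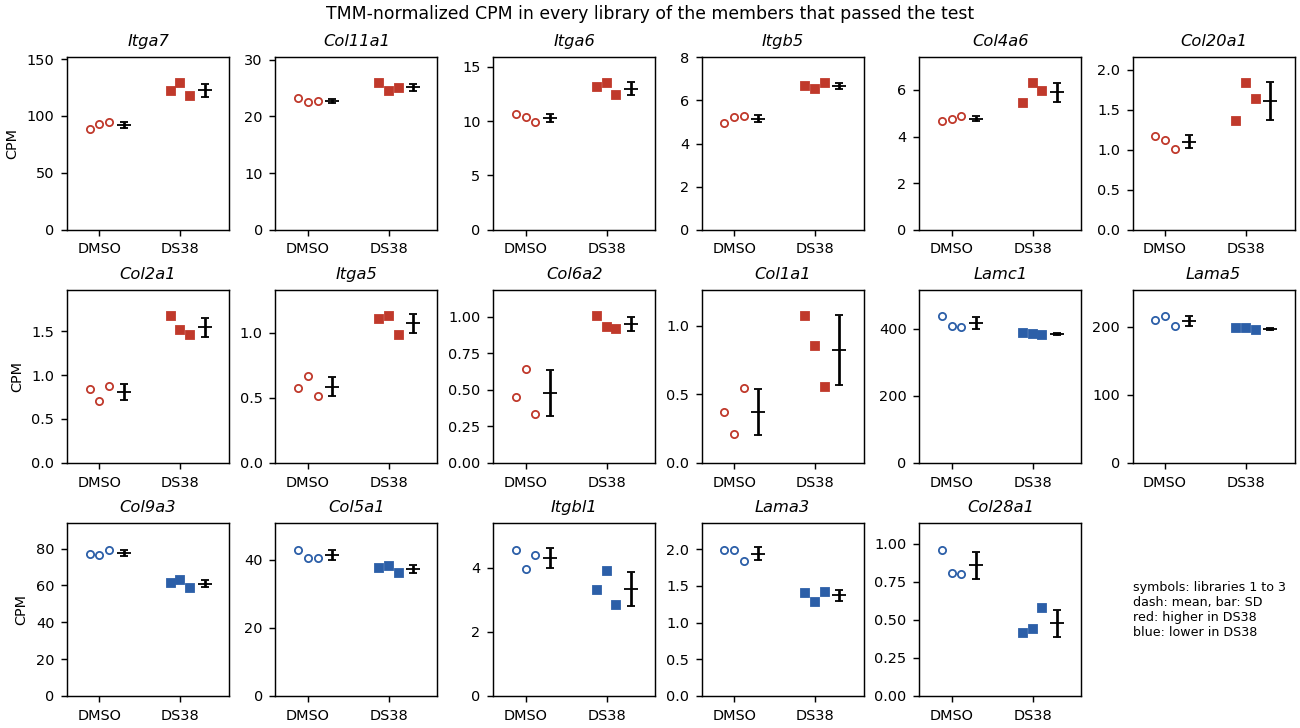
TMM-normalized CPM of the 17 members that passed the test, one panel each with its own axis from 0; open circles are DMSO libraries, filled squares DS38 libraries, and the dash and bar give mean and SD (n = 3). Red panels are higher and blue panels lower in DS38; the groups are far apart for Itga7 and Col9a3 and almost touch for Col1a1 and Itgbl1.

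The most abundant laminin chains were those of the alpha 5, beta 2 or beta 1, gamma 1 trimers, laminins widespread in mature basement membranes. Per length, Lamc1 was at 50.3 ± 2.12 RPKM in DMSO, Lama5 at 18.3 ± 0.624, Lamb2 at 8.84 ± 0.317 and Lamb1 at 1.86 ± 0.184 (SD, n = 3). Lama2, the muscle and Schwann cell alpha chain, was at 0.405 ± 0.0364, and Lama5 exceeded it 45.5 ± 4.18 times. Lama3, an alpha chain of epithelial basement membranes, was at 0.1805 ± 0.00837. Lamb3 (45 counts in all libraries together), Lama1 (29), Lamc3 (14) and Lama4 (9) were not tested. Gamma 1 exceeded the summed alpha chains by a ratio of RPKM of 2.66 ± 0.114 in DMSO and 2.62 ± 0.00847 in DS38, and the summed beta chains by 4.69 ± 0.172 in DMSO and 4.14 ± 0.178 in DS38. The groups overlapped in the first ratio and not in the second.

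Of the 7 laminin chains tested, 0 rose and 3 fell, by small amounts except for Lama3. Over all tested genes 12.9% were called higher and 11.7% lower. Lamc1 (ENSMUSG00000026478), the gamma chain of most laminins, was at 436, 408 and 404 CPM in DMSO libraries 1 to 3 and 388, 385 and 382 in DS38 libraries 1 to 3. All DS38 libraries were below all DMSO libraries, and Lamc1 fell to 0.925 times its DMSO level (log2 fold change -0.11 ± 0.030 SE, edgeR adjusted p = 0.00908); without DS38 replicate 3 the adjusted p was 0.0518. Lama5 (ENSMUSG00000015647) was at 210.1, 215 and 201 CPM in the DMSO libraries and 197, 198 and 195 in the DS38 libraries. The groups did not overlap (log2 fold change -0.08 ± 0.030 SE, edgeR adjusted p = 0.0413), but that call was lost in 10 of 16 alternatives, among them library size alone (0.208), a correction for gene length (0.269) and the omission of any library except DMSO replicate 3. Lama3 (ENSMUSG00000024421) was at 1.99, 1.997 and 1.84 CPM in the DMSO libraries and 1.404, 1.29 and 1.42 in the DS38 libraries (log2 fold change -0.50 ± 0.15 SE, edgeR adjusted p = 0.0205). It was lost after thinning to equal depth (edgeR adjusted p = 0.0550) and without DMSO replicate 1 or 2 or DS38 replicate 2 (0.0624, 0.0627 and 0.0739).

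The beta chains did not pass. Lamb2 was at 54.7, 54.99 and 51.5 CPM in the DMSO libraries and 58.2, 59.2 and 53.6 in the DS38 libraries (log2 fold change 0.08 ± 0.041 SE, edgeR adjusted p = 0.157) and Lamb1 at 20.1, 18.8 and 16.5 CPM in the DMSO libraries and 17.9, 19.4 and 18.2 in the DS38 libraries (log2 fold change -0.0042 ± 0.062 SE, edgeR adjusted p = 0.972). With library size alone Lamb2 passed as higher (edgeR adjusted p = 0.0365), as it did without DS38 replicate 3 (0.0387). Summed beta chains were at 72.3 ± 3.65 CPM with DMSO and 75.6 ± 3.43 with DS38, summed alpha chains at 217 ± 7.21 CPM with DMSO and 204 ± 1.55 with DS38 and summed gamma chains at 417 ± 17.6 CPM with DMSO and 386 ± 2.77 with DS38. Over the whole family the sum was 707 ± 24.7 CPM with DMSO and 666 ± 7.24 with DS38, and the median log2 fold change was -0.08 over 7 genes. Lama2 had a log2 fold change of -0.18 ± 0.094 and did not pass.

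Collagen transcripts were scarce apart from 2 chains. Col9a3, a chain of the fibril-associated collagen IX of cartilage and the eye, was at 20.2 ± 0.4003 RPKM in DMSO and Col5a1, which sets the diameter of collagen fibrils, at 4.82 ± 0.1695. Col4a5 (2.16 ± 0.103), Col9a1 (1.97 ± 0.228), Col27a1 (1.83 ± 0.00974) and Col11a1 (1.79 ± 0.0282) followed, and the other 38 collagens were below 1 RPKM in both groups. Of 44 collagens 18 were not tested, with 0 to 63 counts in all libraries together. Col5a2 had no count at all.

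Chains that assemble together were far from equal, as the plot of partner chains shows. Collagen IX is a trimer of 1 chain from each of Col9a1, Col9a2 and Col9a3, yet Col9a3 exceeded Col9a1 10.3 ± 0.931 times and Col9a2 56.3 ± 18.9 times per length in DMSO. Col4a1 and Col4a2 form the common collagen IV trimer and lie head to head, with 22 exon bases in common on opposite strands in the annotation. Col4a1 was 6.11 ± 1.83 times Col4a2, which had 235 counts in all libraries. Col4a5 exceeded Col4a6, its neighbour on the X chromosome, by a ratio of 3.61 ± 0.209 in DMSO and 3.101 ± 0.0726 in DS38. Col5a1 was measured without Col5a2, Col1a1 (233 counts) almost without Col1a2 (12), and Col6a1 and Col6a2 (530 and 281) almost without Col6a3 (3).

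**Figure D4:**
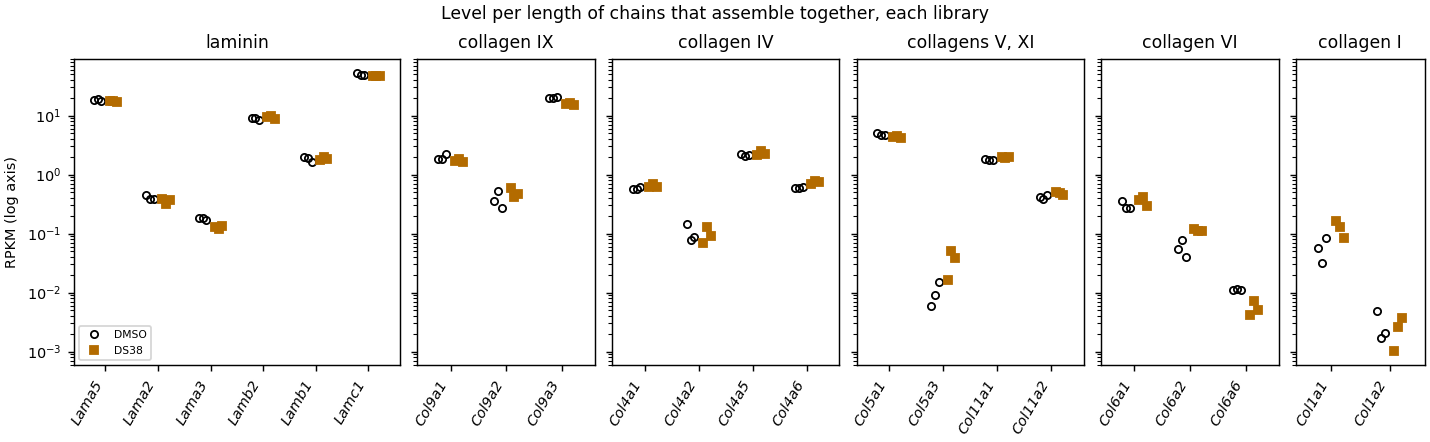
RPKM on a log axis of chains that assemble together, one point per library, open circles DMSO and filled squares DS38. Lamc1 and Lama5 lie above the laminin beta chains; Col9a3 lies about 10 times above Col9a1, and Col1a2 and Col6a6 rest on a few counts per library.

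Among fibril-associated collagens Col9a3 fell and Col20a1 rose. Col9a3 (ENSMUSG00000027570) was at 76.9, 76.8 and 79.5 CPM in DMSO libraries 1 to 3 and 61.3, 62.9 and 58.9 in DS38 libraries 1 to 3. Every DS38 library was far below every DMSO library, and Col9a3 fell to 0.785 times its DMSO level (log2 fold change -0.35 ± 0.034 SE, edgeR adjusted p = 1.955e-07). In the annotation 6.07% of its exon bases lie opposite exons of Tcfl5, which had 31 counts in all libraries. Its partners did not pass, although Col9a1 did after the gene length correction (edgeR adjusted p = 0.0490) and Col9a2 without DMSO replicate 2 (0.0476). Col9a1 was at 9.97 ± 1.15 CPM with DMSO and 8.77 ± 0.548 with DS38 (log2 fold change -0.18 ± 0.081) and Col9a2 at 1.201 ± 0.418 CPM with DMSO and 1.52 ± 0.257 with DS38 (0.33 ± 0.21). Col20a1 was at 1.17, 1.12 and 1.01 CPM in the DMSO libraries and 1.35, 1.83 and 1.63 in the DS38 libraries (log2 fold change 0.53 ± 0.18 SE, edgeR adjusted p = 0.0347), and its call was lost in 8 of 16 alternatives, including DESeq2 (adjusted p = 0.0630). Summed over the 9 fibril-associated chains the level was 91.7 ± 2.405 CPM with DMSO and 74.9 ± 2.79 with DS38. Most of it was Col9a3 (means of 77.7 and 61.0 CPM).

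Of the fibrillar collagens, 3 rose and 1 fell of 7 tested, where 12.9% of all tested genes were called higher and 11.7% lower. Col5a1 (ENSMUSG00000026837) was at 42.9, 40.4 and 40.4 CPM in the DMSO libraries and 37.6, 37.98 and 35.99 in the DS38 libraries and fell to 0.901 times its DMSO level (log2 fold change -0.15 ± 0.041 SE, edgeR adjusted p = 0.00872). Col11a1 (ENSMUSG00000027966), with which it forms mixed trimers, was at 23.2, 22.6 and 22.6 CPM in the DMSO libraries and 25.8, 24.5 and 25.1 in the DS38 libraries and rose 1.10-fold (log2 fold change 0.14 ± 0.046 SE, edgeR adjusted p = 0.0284). Neither pair of groups overlapped, and the ratio of Col5a1 to Col11a1 per length was 2.69 ± 0.0527 in DMSO and 2.21 ± 0.0907 in DS38. The Col5a1 call was lost without DMSO replicate 1 or DS38 replicate 3 (edgeR adjusted p = 0.0612 and 0.0618), and that of Col11a1 in 6 of 16 alternatives, including DESeq2 (adjusted p = 0.0627). Col2a1 (ENSMUSG00000022483), the main fibrillar collagen of cartilage, was at 0.839, 0.707 and 0.879 CPM in the DMSO libraries and 1.67, 1.52 and 1.46 in the DS38 libraries. It rose 1.92-fold (log2 fold change 0.94 ± 0.19 SE, edgeR adjusted p = 8.354e-04) and kept its call in all alternatives that tested it. Col1a1, the main chain of bone and skin collagen, was at 0.368, 0.208 and 0.543 CPM in the DMSO libraries and 1.07, 0.848 and 0.552 in the DS38 libraries (log2 fold change 1.16 ± 0.33 SE, edgeR adjusted p = 0.0122). DMSO library 3 and DS38 library 3 differed little there, and the call was lost without DMSO replicate 2 or DS38 replicate 1 (edgeR adjusted p = 0.0887 and 0.0980). The other 3 tested had log2 fold changes from -0.19 to 0.22 and did not pass.

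All 6 collagen IV chains were tested and 1 rose, where 12.9% of all tested genes were called higher. Col4a6 was at 4.69, 4.74 and 4.89 CPM in the DMSO libraries and 5.45, 6.28 and 5.96 in the DS38 libraries and rose 1.24-fold (log2 fold change 0.30 ± 0.092 SE, edgeR adjusted p = 0.0178), a call lost in 5 of 16 alternatives, among them thinning to equal depth (adjusted p = 0.123). Col4a5, Col4a1 and Col4a2 had log2 fold changes of 0.08 ± 0.065, 0.13 ± 0.099 and -0.12 ± 0.30, and the chains of the kidney and inner ear network 0.02 and 0.45. None of these 5 passed. The sum over the 6 chains was 24.9 ± 0.975 CPM with DMSO and 27.4 ± 2.38 with DS38, with overlap between groups. In collagen VI, a beaded filament, Col6a2 was at 0.4503, 0.645 and 0.336 CPM in the DMSO libraries and 1.003, 0.9296 and 0.916 in the DS38 libraries and rose 1.96-fold (log2 fold change 0.97 ± 0.26 SE, edgeR adjusted p = 0.00726). Its partner Col6a1 was at 1.32 ± 0.207 CPM with DMSO and 1.57 ± 0.255 with DS38 (log2 fold change 0.24 ± 0.18) and did not pass. Col28a1, a von Willebrand domain collagen of peripheral nerve, was at 0.962, 0.811 and 0.801 CPM in the DMSO libraries and 0.414, 0.4403 and 0.575 in the DS38 libraries (log2 fold change -0.84 ± 0.26 SE, edgeR adjusted p = 0.0182). That fall rested on 27 to 49 counts per library and was lost once DMSO replicate 1 or DS38 replicate 1 or 2 was left out (edgeR adjusted p = 0.0811, 0.0776 and 0.0596). The transmembrane collagens (2 of 4 tested) and multiplexins (1 of 2 tested) had log2 fold changes from -0.13 to 0.12 and none passed.

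Collagens that rose at around 1 CPM or below, such as Col1a1, Col6a2 and Col2a1, are made in quantity by fibroblasts and chondrocytes. Of the 11 fibroblast and meningeal markers 9 were tested and 1, Fbln1, rose (from 67.0 ± 1.19 to 83.1 ± 1.91 CPM). Their summed level, to which Fbln1 and Pdgfra added most, was 191 to 192.2 CPM in DMSO and 203 to 210.4 in DS38. Dcn and Postn were below 0.1 CPM in both groups. Pdgfra had the highest CPM of that list in DMSO. Its level was 71.5 ± 0.405 CPM with DMSO and 69.97 ± 2.59 with DS38, and it did not pass. Of 9 pericyte and smooth muscle markers 1 of 5 tested, Notch3, rose, with a summed level of 6.18 to 6.97 CPM in DMSO and 7.42 to 7.70 in DS38 and Rgs5 at 0. Of 9 astrocyte and radial glia markers Gfap rose and Slc1a2 fell among 6 tested, with Aqp4, Aldh1l1 and Gja1 below 0.1 CPM. The summed level of that list was 452 to 476 CPM in DMSO and 395 to 407 in DS38. Slc1a2, most of that sum, went from 309 ± 11.4 CPM with DMSO to 249 ± 3.86 with DS38. Of 6 Schwann cell markers Pmp22 rose and Ngfr fell (summed 123.5 to 126.9 CPM in DMSO and 118.9 to 120.7 in DS38), and of 8 oligodendrocyte markers Olig1 rose (29.7 to 30.5 and 32.1 to 35.9, with Mag at 0 and Sox10 below 0.1 CPM). The mixed list for granule precursors and hedgehog medulloblastoma summed to 2647 to 2773 CPM in DMSO and 2555 to 2576 in DS38. Of its 14 genes 2 rose (Atoh1 and Barhl1) and 9 fell. Log2 fold changes of those that fell ran from -1.27 (Fat2) to -0.096 (Zic1). Beside these marker counts, 12.9% of all tested genes were called higher and 11.7% lower. The part of the marker shifts in the members' changes was not tested.

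Of 36 listed genes of the machinery that couples integrins to actin 31 were tested; 3 rose, 6 fell and 22 did not pass. The 29.0% called is near the background of 24.5% of all tested genes and 29.4% of protein-coding ones. Zyx, an actin-linked adhesion protein, rose from 64.8 ± 2.07 to 71.9 ± 0.639 CPM, the tetraspanin Cd151, a partner of laminin-binding integrins, from 29.8 ± 0.649 to 33.6 ± 1.901 CPM, and Git1 from 109 ± 3.21 to 117 ± 1.53 CPM. The call of Cd151 was lost without DS38 replicate 1 (edgeR adjusted p = 0.0719), and that of Git1 without DMSO replicate 2 or any DS38 replicate (0.0505 to 0.144). With the correction for gene length the Git1 call was also lost (edgeR adjusted p = 0.0925). Kank1, which binds talin, fell from 43.3 ± 0.973 to 36.4 ± 0.8501 CPM, Dock1 from 218 ± 3.33 to 196 ± 1.38 CPM and the alpha-parvin gene Parva from 74.0 ± 1.93 to 65.1 ± 2.73 CPM. With library size alone 7 rose and 3 fell. Log2 fold changes of the list ran from -0.25 to 0.29 with a median of 0.04.

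Of 36 other matrix proteins and matrix receptors listed 29 were tested; 4 rose, 6 fell and 19 did not pass. The share called was 34.5%, against 24.5% of all tested genes and 29.4% of protein-coding ones. Fbln1, a matrix glycoprotein that binds basement membrane proteins and is also among the fibroblast markers above, rose by 0.31 ± 0.033 on the log2 scale, Sgca, a sarcoglycan of the dystroglycan complex, by 0.68 ± 0.086, and Agrn, the proteoglycan agrin, by 0.22 ± 0.042 (SE). Hspg2, which encodes the basement membrane proteoglycan perlecan, fell from 84.7 ± 8.83 to 66.2 ± 0.889 CPM (log2 fold change -0.36 ± 0.048 SE, edgeR adjusted p = 1.101e-05). Sparcl1 and the neural proteoglycan gene Ncan had log2 fold changes of -0.24 ± 0.028 and -0.22 ± 0.035 and fell. The basement membrane proteoglycans Agrn and Hspg2 moved in opposite directions. With library size alone 8 of the list rose.

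Among enzymes, chaperones and regulators of collagen assembly, 28 of 38 listed genes were tested, and 11 rose, 4 fell and 13 did not pass. The share called was 53.6%, against 24.5% of all tested genes (12.9% higher and 11.7% lower) and 29.4% of protein-coding ones. Serpinh1, the collagen chaperone HSP47, rose from 76.6 ± 2.38 to 87.9 ± 0.9202 CPM (log2 fold change 0.20 ± 0.032 SE, edgeR adjusted p = 1.079e-04), the lysyl hydroxylase gene Plod1 from 27.4 ± 2.699 to 33.8 ± 1.15 CPM, and the prolyl isomerase gene Ppib from 111 ± 4.05 to 123 ± 2.42 CPM. Tll1, a protease that trims procollagens, fell from 5.61 ± 0.4703 to 3.56 ± 0.206 CPM (log2 fold change -0.66 ± 0.10 SE, edgeR adjusted p = 5.647e-05), the prolyl hydroxylase gene P4ha1 from 62.9 ± 2.44 to 55.2 ± 0.1801 CPM, and the lysyl hydroxylase gene Plod2 from 95.8 ± 2.31 to 89.0 ± 0.5502 CPM. The Plod2 call was lost once DMSO replicate 1 or DS38 replicate 1 or 2 was left out and with library size alone (edgeR adjusted p = 0.0522 to 0.0802). The number that rose was 5 with DESeq2 or a correction for gene length, 7 after thinning to equal depth or without DS38 replicate 1, 5 with DMSO replicate 1 or 2 or DS38 replicate 3 left out, and 4 without DS38 replicate 2. It was 15 with library size alone. The lysyl hydroxylase genes moved in opposite directions, Plod1 and Plod3 higher and Plod2 lower. The substrate chains summed over all 44 collagens were at 235 ± 4.43 CPM with DMSO and 219.6 ± 9.87 with DS38.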

How the data were processed

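Messenger RNA was sequenced from 3 DMSO and 3 DS38 libraries. The authors deposited whole-number read counts and a length for each gene. The submitters' processing notes name, without roles, STAR 2.7.9a, Subread 2.0.3 with featureCounts, edgeR and R 4.1.0, and as builds GRCm39 and GRCh38.p13. A strand setting is not given in the sources used here, so overlapping genes on opposite strands may share reads. Symbols were matched for 52135 of 55416 identifiers; unmatched ones took 0.338% of counts and were kept in the fit.

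Genes passing filterByExpr (minimum count 10, minimum total 15) were tested with edgeR 4.0.16 in R 4.3.3: quasi-likelihood test, TMM normalization, two-sided, Benjamini-Hochberg adjustment over 17679 genes, threshold 0.05. The code was tested on simulated counts with known changes. CPM and RPKM were computed from TMM-scaled counts, RPKM with the deposited length. A count of 0 in all 6 libraries allows up to 3 counts. Alternatives were DESeq2 1.42.0, limma-voom (limma 3.58.1), other scalings and filters (5 CPM in 3 libraries as the stricter), robust dispersion, a replicate block, thinning to the smallest library, removal of a gene length trend and each library left out.

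No 2 libraries of a group agreed within counting noise, so none was treated as a duplicate deposit; this does not show that they were separate cultures. Members, gene lists and tests were chosen with earlier results of these data known. Named members passed the test, were among the 4 most abundant of their family per length or were partners of such a chain, and from each other list the 3 genes of smallest adjusted p per direction were named. Members without a test were named by their total counts. Itga3, Itga10, Col27a1, Plod3, Pdgfra, members named for an overlap with another gene or for the width of a bar in a figure, members that passed only under an alternative, and the marker genes that passed were named after their values were seen. Values of 1 tested member are not reported here, though it stays in the counts, sums and medians of its family.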

Additional observations from a re-analysis of the deposited data

How the results depend on the processing

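Of the 17 members called, 7 were called under each of the 16 alternatives that tested them, and none of the 17 changed sign; Col2a1, Col6a2 and Itga5, among the 7, were not tested under the stricter filter. Integrins called lower numbered 2 (reported 1) with DESeq2, limma-voom, RLE scaling and the gene length correction, where Itgb1 passed. Laminins called higher numbered 1 (reported 0) with library size alone, and lower 1 (reported 3) after thinning. Collagens called higher numbered 2 (reported 6) with the stricter filter, which tested 9 collagens, and 3 after thinning. With library size alone, adhesion machinery had 7 higher and 3 lower (reported 3 and 6), matrix partners 8 higher (reported 4), and collagen processing 2 lower (reported 4). With the length correction adhesion machinery had 5 higher. Collagen processing had 5 higher (reported 11) with DESeq2, 7 after thinning and 5 with the length correction. The cause was not tested. Leaving out each library in turn gave 1640 to 2437 genes higher and 1549 to 2474 lower over all genes; 4 to 4 integrins higher and 0 to 2 lower; 0 to 1 laminins higher and 1 to 3 lower; and 3 to 5 collagens higher and 1 to 3 lower. Adhesion machinery had 1 to 4 higher and 3 to 5 lower, matrix partners 3 to 5 and 4 to 5, and collagen processing 4 to 10 and 2 to 4. The lowest collagen counts came without DMSO replicate 2 or DS38 replicate 3 (3 higher) and without DMSO replicate 1 (1 lower).

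Among the members named by the rule that did not pass, signs changed for Col4a2, Itgav, Itgb8 and Lamb1; for the remaining tested members that did not pass, fold changes under the alternatives are not given. Col4a2 had a log2 fold change of 0.16 after thinning and -0.37 to 0.22 with a library left out. Itgav had 0.0030 with library size alone, 0.0046 with the length correction and -0.067 to 0.021 with a library left out, and Itgb8 -0.058 to 0.113. Lamb1 had 0.032 with library size alone, 0.0031 with no filter, 0.0027 with the replicate block, 0.011 after thinning, 0.022 with the length correction and -0.078 to 0.062 with a library left out.

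Besides Itgb1, members called only under at least 1 alternative were Lamb2, Col9a1, Col9a2, Col27a1 and Col5a3.

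No shared effect of replicate number was seen: deviations of same-numbered libraries correlated at 0.03, -0.01 and -0.03. These values do not show that the samples were unpaired. With the replicate block 16 of the 17 calls remained, Lama5 was lost (adjusted p = 0.0680), and 2108 genes were higher and 1902 lower over all genes. Depth limits the low members: at under 1 CPM the median SE was 0.26, so small changes there were not detectable.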
